A study of Mus musculus with 12 samples.

Results

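The genes described here encode the components of TGF-beta and BMP signaling that had a value in corneal endothelial cells (CEC) of *Slc4a11* knockout and wild type mice. They were found by gene symbol, as protein-coding genes whose names match the families of ligands, receptors, SMADs, their ligases and co-repressors, ID proteins, latent binding proteins and secreted antagonists. The rule found 58 of the 15838 genes listed, of which 12994 are protein-coding. RNAseq was performed on CEC with Descemet membrane, the basement membrane on which these cells sit, peeled from C57BL/6 mice at 10 weeks of age. The 12 libraries form 4 groups of 3, which are *Slc4a11*-/- (KO) male, *Slc4a11*-/- female, *Slc4a11*+/+ (WT) male and *Slc4a11*+/+ female. KO mice carry a targeted deletion of part of *Slc4a11* and were bred as littermates of the WT mice. How many mice stand behind a library is not settled, since the study's methods have the membranes of both corneas processed together and its sample records have them pooled by genotype.

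Every level below is the authors' mean over the libraries, KO and WT and both sexes together, in log2 CPM, where CPM is the read count of a gene scaled to a fixed library total. No value per library was used, so a level has no SD, no n of replicates and no known depth behind it. The differences by genotype and by sex were not analysed here, because the tables give these only as the authors' own comparisons. A level given in CPM is the geometric mean, 2 to the power of the mean log2 CPM. A long gene collects more reads than a short one at the same abundance, so ratios between genes and the order of genes are given per length, as the mean log2 CPM less the log2 of the exonic bases in kb, written log2 CPM per kb. A plain CPM value is given as the amount of signal behind a gene, and for thresholds. Order by this scale is a description, since neighbors in the order cannot be told apart without the spread between libraries.

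TGF-beta ligands are secreted in a latent complex with latent TGF-beta binding proteins, which hold them in the extracellular matrix until they are released. A released ligand joins type II and type I receptor kinases, and the type I receptor phosphorylates SMAD2 and SMAD3. BMP ligands act through their own type I receptors on SMAD1, SMAD5 and SMAD9, and both branches share SMAD4. Inhibitory SMADs, SMURF ligases, SKI family co-repressors and secreted antagonists such as noggin restrain these branches, and *Id1*, *Id2* and *Id3* are well known transcriptional targets of BMP signaling. In the eye, TGF-beta2 is the main TGF-beta isoform of the aqueous humor that bathes the CEC, and TGF-beta is known for driving CEC toward a fibroblast-like state.

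The tissue was checked against marker genes. Of 13 genes listed for corneal endothelium, 11 had at least 10 CPM, led per length by *Aqp1*, a water channel, at 10.97 log2 CPM per kb and *Col8a2*, a collagen of Descemet membrane, at 10.63. *Col8a1* (8.31), *Slc4a4* (7.57), *Tjp1* (7.25), *Alcam* (7.20), *Ncam1* (6.52) and *Cdh2* (6.14 log2 CPM per kb) followed. *Slc4a11* itself stood at 8.39 log2 CPM per kb, a mean over both genotypes that does not check the labels. The other 2 genes of the endothelial list, the carbonic anhydrase genes *Car2* and *Car12*, had 1.67 and 3.15 CPM. All 7 genes listed for corneal stroma were also high, between 7.06 log2 CPM per kb for *Ogn* and 9.34 for *Dcn*, a range that overlaps that of the endothelial list. *Col1a1* (9.19), *Col1a2* (8.43) and *Lum* (7.20) lay between them. *Aldh3a1*, a crystallin-like enzyme of the cornea, was at 9.10 and *Kera*, a keratocyte proteoglycan, at 7.23 log2 CPM per kb. Corneal epithelial keratins were lower than these, with *Krt5* at 3.99 log2 CPM per kb (34.8 CPM), still above the protein-coding median of 2.19, *Krt12* at 6.07 CPM and *Krt14* at 4.55 CPM, and *Trp63* (3.74 CPM), *Epcam* (1.17 CPM) and *Cdh1* (0.995 CPM) were low too. Of the vascular endothelial list only *Kdr* reached 10 CPM, at 82.1 CPM, while *Pecam1*, *Cdh5*, *Tek* and *Tie1* lay between 0.182 and 1.90 CPM. *Myh11*, a contractile gene of smooth muscle, was at 4.76 log2 CPM per kb (206 CPM) and *Acta2*, another, at 49.8 CPM, both above the protein-coding median per length, while *Des* and *Actg2* have no row. Leukocyte genes ranged from 1.91 CPM for *Ptprc* to 19.8 CPM for *Lyz2*, with *Cd68*, *Csf1r* and *Cd74* between them. *Lyz2* (3.91 log2 CPM per kb) and *Cd74* (2.81) also lay above that median per length, as did *Kdr* (3.19). Pigment cell genes (*Mlana*, *Tyr*, *Tyrp1*, *Pmel* and *Dct*) ranged from 0.669 to 9.59 CPM, and lens genes (*Cryaa*, *Crygs* and *Bfsp1*, while *Lim2* has no row) from 1.66 to 6.18 CPM. Of the Schwann cell list, *Sox10* had 1.07 CPM. The part of the stromal and other cells in the levels of the pathway genes was not tested, and in bulk RNA fewer cells of a type and less RNA per cell cannot be told apart.

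**Figure D1:**
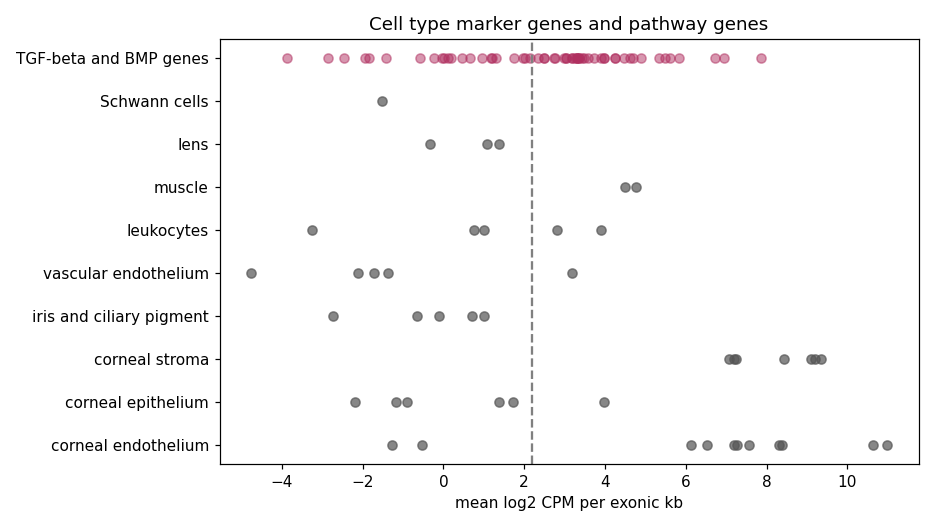
Mean level of the cell type marker genes reported here (grey points, 1 row per list) and of the 58 TGF-beta and BMP genes (red points, top row), on an axis of mean log2 CPM per exonic kb over the 12 libraries. The dashed line is the median of protein-coding genes, 2.19. The stromal list and most of the endothelial list lie furthest to the right, while *Car2* and *Car12* of the endothelial list lie left of the line.

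The pathway genes spanned most of the range of expression in the peeled tissue, in which the stromal marker genes were high too. Their mean levels ran from -1.49 to 10.57 log2 CPM, with a median of 4.93 against 4.37 for all protein-coding genes. Per length the median was 3.03 log2 CPM per kb against 2.19. At least 1 CPM was reached by 55 of the 58 genes (94.8%, against 95.3% of protein-coding genes), at least 10 CPM by 43 (74.1% against 66.7%) and at least 100 CPM by 14 (24.1% against 13.1%). Per length, 36 of the 58 genes lay in the upper 50% of protein-coding genes, 19 in the upper 25% and 10 in the upper 10%. In descending order, the 10 highest were *Tgfbr3*, *Ltbp3*, *Fstl1*, *Id3*, *Bmp3*, *Ski*, *Fst*, *Tgfb2*, *Id1* and *Bmpr1a*. These are an accessory receptor, a latent binding protein, a pair of secreted binding proteins of the follistatin family, a pair of ID genes, a pair of ligands, a co-repressor and a type I receptor, so the highest genes came from most of the roles in the pathway. Just above 1 CPM were *Bmp6* (1.08 CPM), *Tgfbr3l* (1.09 CPM) and *Bmpr1b* (1.56 CPM), and *Bambi* (0.920 CPM) and *Gdf10* (0.357 CPM) were among those below it.

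**Figure D2:**
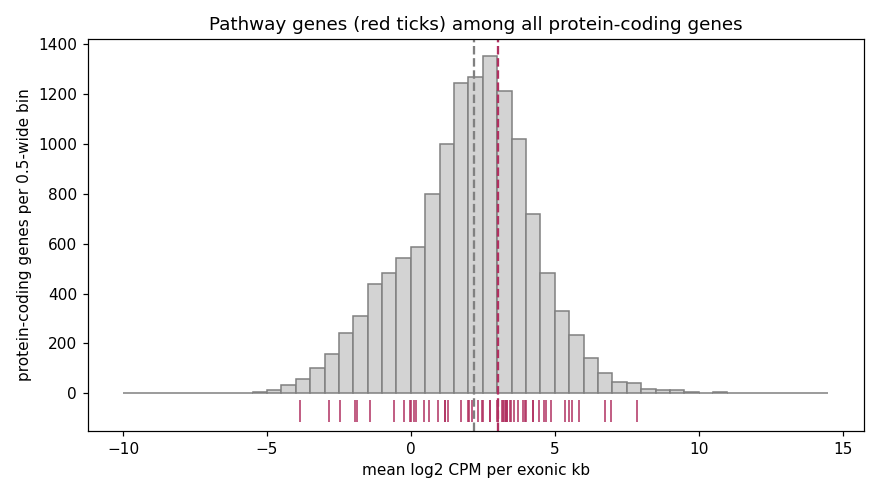
Histogram of the mean log2 CPM per exonic kb of protein-coding genes (grey bars, genes per bin), with each of the 58 TGF-beta and BMP genes as a red tick under it. The dashed lines are the medians, 2.19 for protein-coding genes (grey) and 3.03 for the pathway genes (red), whose ticks reach from the left tail to the right tail.

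**Figure D3:**
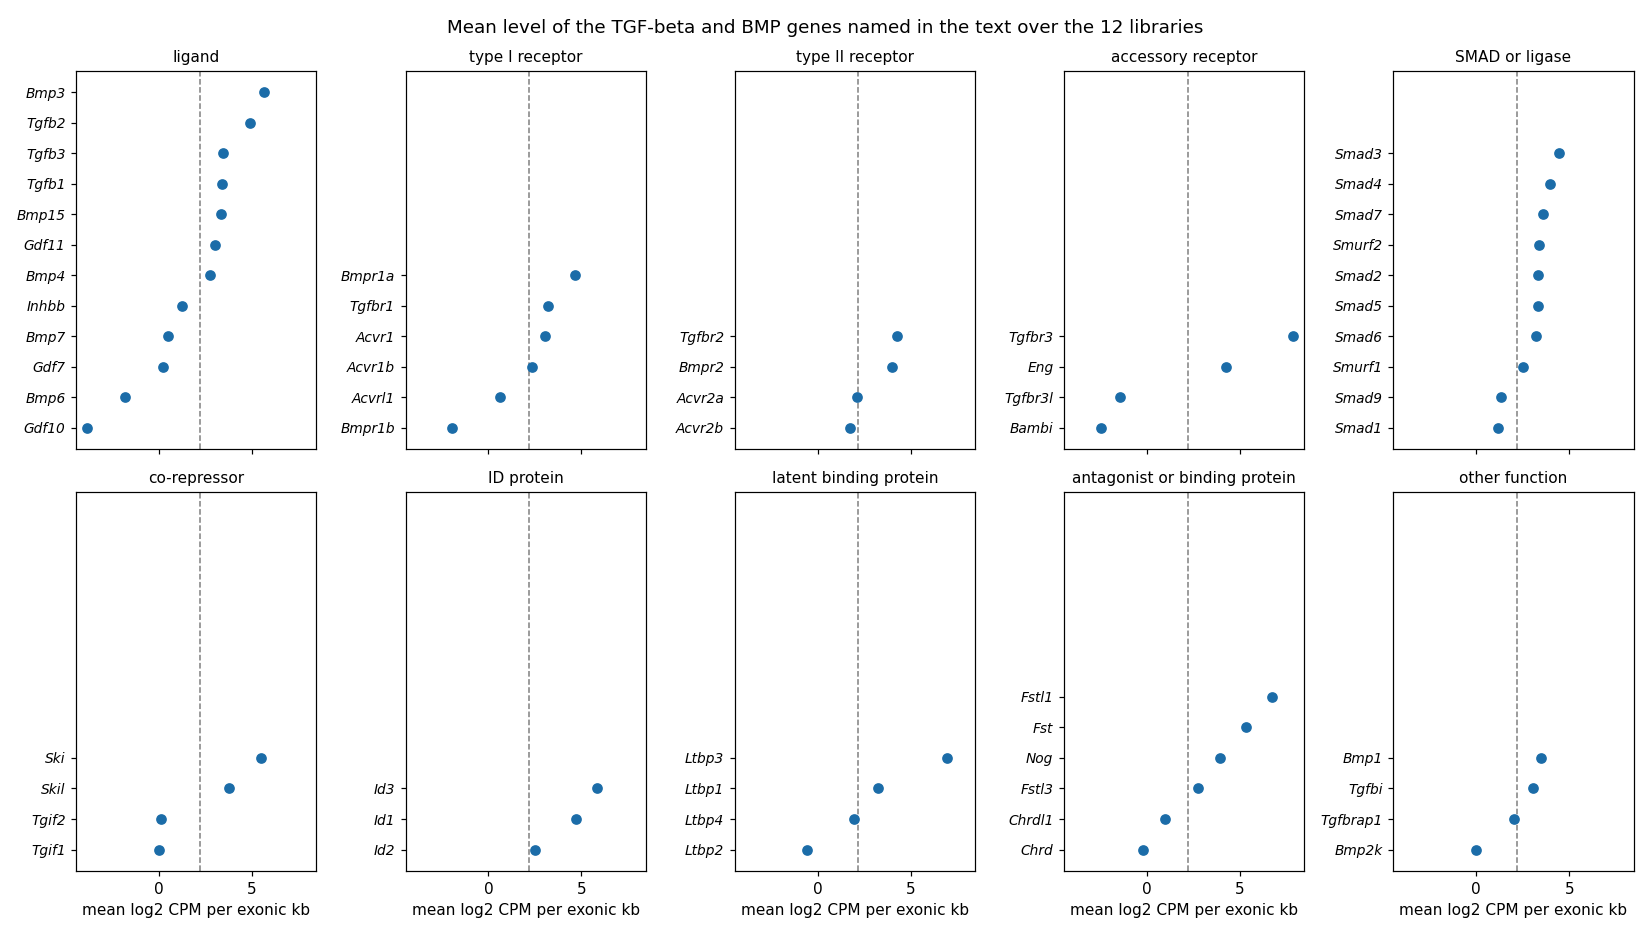
Mean level over the 12 libraries of the TGF-beta and BMP genes named in the text, in panels by role, on an axis of mean log2 CPM per exonic kb. Points are the authors' means and carry no error bars, the dashed line is the median of protein-coding genes (2.19), and every role except the ID proteins holds genes on both sides of it.

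Among the 12 ligand genes, *Bmp3* was the highest per length, at 5.61 log2 CPM per kb (362 CPM). BMP3 is an unusual member of the family that opposes other BMPs. *Bmp3* (ENSMUSG00000029335) lies on chromosome 5 from 98854415 to 98884396. *Tgfb2* (ENSMUSG00000039239), on chromosome 1 from 186622792 to 186705989, followed at 4.88 log2 CPM per kb (171 CPM). Of the TGF-beta isoforms, *Tgfb3* had 3.44 and *Tgfb1* 3.35 log2 CPM per kb. The level of *Tgfb2* per length was 2.72 times that of *Tgfb3* and 2.88 times that of *Tgfb1*, and against *Tgfb1* it was 1.67 times when the longest transcript set the length, since the annotated exons of *Tgfb1* cover 5042 bases and its longest transcript 2573. The order of *Tgfb3* and *Tgfb1* turned around with that length (*Tgfb3* at 0.541 times *Tgfb1*), so these genes have no settled order. *Bmp4*, a ligand with roles in the development of the anterior segment, had 2.74 log2 CPM per kb, 7.32-fold lower than *Bmp3*. *Gdf11*, a ligand that acts through activin receptors, had 2.99 (32.2 CPM), and *Inhbb*, the beta B subunit of activins and inhibins, 1.20 (9.78 CPM). The levels of *Bmp7* (5.54 CPM), *Gdf7* (1.62 CPM) and *Bmp6* (1.08 CPM) were low, and *Gdf10*, also known as BMP3B, was the lowest of all 58 genes at -3.87 log2 CPM per kb. *Bmp15*, a growth factor known from oocytes, stood at 3.30 log2 CPM per kb (30.1 CPM), above the protein-coding median. It lies on chromosome X from 6314107 to 6320721 and shares no exonic base with another annotated gene. Overlap with introns of other genes was not checked, and the source of its reads was not tested.

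Of the 6 type I receptor genes, *Bmpr1a* (ENSMUSG00000021796), a receptor for BMPs, was the highest, at 4.63 log2 CPM per kb (157 CPM). The TGF-beta type I receptor *Tgfbr1* had 3.18 (59.4 CPM) and *Acvr1*, which serves BMPs and activins, 3.03 (39.3 CPM). *Acvr1b*, the activin type I receptor, had 2.33 log2 CPM per kb (22.2 CPM). *Acvrl1*, a receptor typical of vascular endothelium, had 0.65 (6.68 CPM) and *Bmpr1b* -1.94 (1.56 CPM). Both genes lay below the protein-coding median.

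All 4 type II receptor genes had at least 10 CPM, a level that 66.7% of protein-coding genes reached. *Tgfbr2* (ENSMUSG00000032440), the TGF-beta type II receptor on chromosome 9 from 116084293 to 116175360, had 4.25 log2 CPM per kb (155 CPM), 2.09 times the level of *Tgfbr1* per length. *Bmpr2*, the BMP type II receptor, had more reads, 283 CPM, but with 17983 exonic bases its level per length was 3.98. That is 0.637 times the level of *Bmpr1a*, and 0.833 times when the longest transcript set the length. With that length *Bmpr2* (4.46) stood above *Tgfbr2* (4.26), so *Bmpr2* and *Tgfbr2* have no settled order. The activin type II receptors were lower, *Acvr2a* at 2.13 and *Acvr2b* at 1.75 log2 CPM per kb, both below *Tgfbr2* and *Bmpr2*.

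Accessory receptors held the highest of the 58 genes. *Tgfbr3* (ENSMUSG00000029287) encodes betaglycan, a co-receptor that presents TGF-beta2 to TGFBR2 and also binds inhibin. The gene (chromosome 5 from 107106570 to 107289629, minus strand) had 1522 CPM, or 7.86 log2 CPM per kb, a level under which 99.5% of protein-coding genes fell. *Eng*, encoding the related co-receptor endoglin, had 4.23 (76.2 CPM), so that *Tgfbr3* was 12.4 times as high per length. *Tgfbr3l*, a betaglycan-like gene, had -1.43 and *Bambi*, a pseudoreceptor without a kinase domain, -2.46 log2 CPM per kb. Of the exonic bases of *Tgfbr3l*, 52.2% are shared with *Gm49320* on the same strand, so its value is uncertain.

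SMADs and their ligases spanned a narrower range than the ligands, from 1.18 to 4.46 log2 CPM per kb. At least 10 CPM was reached by all 10, against 66.7% of protein-coding genes, and 8 of the 10 lay above the protein-coding median per length. In the TGF-beta branch *Smad3* had 4.46 (122 CPM) and *Smad2* 3.30 log2 CPM per kb (86.5 CPM), a ratio of 2.23. In the BMP branch *Smad5* had 3.29 (72.8 CPM), *Smad9* 1.30 (13.2 CPM) and *Smad1* 1.18 (14.2 CPM). Per length *Smad5* was 4.32 times as high as *Smad1*, and 2.94 times when the longest transcript set the length. With that length *Smad1* (1.91) stood above *Smad9* (1.30), so these 2 genes have no settled order. *Smad4*, the SMAD shared by both branches, had 3.99 (58.8 CPM). The inhibitory SMADs were close, *Smad7* at 3.58 (53.9 CPM) and *Smad6* at 3.18 log2 CPM per kb (29.1 CPM). *Smurf2*, a ubiquitin ligase that targets SMADs and receptors, had 3.35 (63.0 CPM) and its relative *Smurf1* 2.50 (35.8 CPM).

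The nuclear co-repressors fell apart into high and low genes. *Ski* (ENSMUSG00000029050), which binds SMADs and blocks their transcriptional activity, had 5.48 log2 CPM per kb (249 CPM) and its relative *Skil* 3.73 (129 CPM). The homeodomain co-repressors *Tgif2* and *Tgif1* had 0.11 (4.15 CPM) and 0.01 (5.68 CPM), both below the protein-coding median. Their order turned around when the longest transcript set the length, with *Tgif2* at 0.52 and *Tgif1* at 0.85. Of the exonic bases of *Tgif2*, 56.7% lie opposite exons of *5430405H02Rik* (1.29 log2 CPM), so its value depends on whether the counting used strand.

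The ID genes encode helix-loop-helix proteins that bind and disable other such factors. All 3 lay above the protein-coding median per length, *Id3* (ENSMUSG00000007872, chromosome 4 from 136143497 to 136145755) at 5.84 (102 CPM), *Id1* at 4.70 (30.1 CPM) and *Id2* at 2.48 log2 CPM per kb (13.6 CPM). These genes are short, and *Id1*, with 1160 exonic bases, moved from place 30 of the 58 genes by CPM to place 9 per length.

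Latent binding proteins were led by *Ltbp3* (ENSMUSG00000024940), on chromosome 19 from 5740904 to 5758532, with 1116 CPM and 6.94 log2 CPM per kb. LTBP3 binds latent TGF-beta, as LTBP1 does. *Ltbp1* had 3.25 (102 CPM), *Ltbp4* 1.97 (25.4 CPM) and *Ltbp2*, a member that does not bind latent TGF-beta, -0.57 log2 CPM per kb (5.51 CPM). Per length *Ltbp3* was 13.0 times as high as *Ltbp1*, and 12.8 times when the longest transcript set the length.

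Secreted antagonists and binding proteins ranged widely. *Fstl1*, a follistatin-like glycoprotein on chromosome 16 from 37776873 to 37836514, had 522 CPM and 6.73 log2 CPM per kb. *Fst*, encoding follistatin, which traps activins, had 5.34 (186 CPM), and *Fstl3*, another activin binding protein, 2.76 (16.5 CPM). Of the exonic bases of *Fstl3*, 47.3% lie opposite exons of *Prss57*, which has no row. The BMP antagonist *Nog* had 3.91 log2 CPM per kb (25.5 CPM). The chordin family antagonists were lower, *Chrdl1* at 0.95 (13.1 CPM) and *Chrd* at -0.23 (5.32 CPM). Per length *Nog* was 17.7 times as high as *Chrd*, and 12.4 times when the longest transcript set the length.

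The other 4 genes share a name with the families but have other functions. *Bmp1*, a protease that trims procollagens and chordin and is no BMP ligand, had 3.47 log2 CPM per kb (98.4 CPM). *Tgfbi*, encoding a matrix protein mutated in stromal corneal dystrophies, had 3.03 (30.8 CPM). *Tgfbrap1*, a receptor-associated protein, had 2.03 (44.8 CPM), and *Bmp2k*, a kinase induced by BMP2, -0.04 log2 CPM per kb (8.27 CPM).

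Pathway genes outside these names were taken from a list of 54 symbols, of which 39 had a row. Their median was 2.88 log2 CPM per kb, against 2.19 for protein-coding genes. At least 10 CPM was reached by 32 of the 39, and by 66.7% of protein-coding genes. Per length the highest were the matrix proteins *Dcn* (9.34 log2 CPM per kb), which binds TGF-beta, and *Thbs1* (9.29), which activates its latent form. Next came *Crim1* (7.54), a membrane protein that binds BMPs, *Bgn* (7.17), a proteoglycan related to decorin, and *Ccn2* (5.81), a known TGF-beta target. *Dcn* is also on the stromal list. Chosen after their values were seen, *Pmepa1*, which limits SMAD signaling, had 4.17 log2 CPM per kb (88.7 CPM) and *Furin*, the protease that cuts the ligand precursors, 4.22 (171 CPM). The lowest were *Fbn2* (-3.54), *Nrros* (-1.24), *Pcsk6* (-0.44), *Tll2* (0.62) and *Nedd4l* (0.90). *Nodal*, *Lefty2*, *Mstn*, *Amh* and *Sost* are among the 15 names with no row, which also include *Ctgf*, the older symbol of *Ccn2*, and both *Cripto* and its older symbol *Tdgf1*, so the list holds fewer genes than symbols.

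Of the 58 genes, 20 share exonic bases with another annotated gene, mostly on the opposite strand. Beside those given above, the largest share was that of *Bmp2k*, with 1185 of its 8480 exonic bases opposite exons of *Paqr3*. *Bmp6*, at 1.08 CPM, has 5.7% of its exonic bases opposite *Txndc5*, which stood at 7.75 log2 CPM. The library kit keeps strand, but how the reads were assigned in these stretches is not given in the sources used here.

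The annotation holds 81 protein-coding genes whose names match the rule, and 23 of them have no row. They are the ligand genes *Bmp2*, *Bmp5*, *Bmp8a*, *Bmp8b*, *Bmp10*, *Gdf1*, *Gdf2*, *Gdf3*, *Gdf5*, *Gdf6*, *Gdf9*, *Gdf15*, *Inhba*, *Inhbc* and *Inhbe*, the receptor gene *Acvr1c*, the antagonist genes *Grem1* and *Chrdl2*, the follistatin-like genes *Fstl4* and *Fstl5*, and *Id4*, *Tgif2lx1* and *Tgif2lx2*. No level can be given for them, and a missing row does not show that a gene was silent, since the rule by which genes were kept in the tables is not given in the sources used here.

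**Figure D4:**
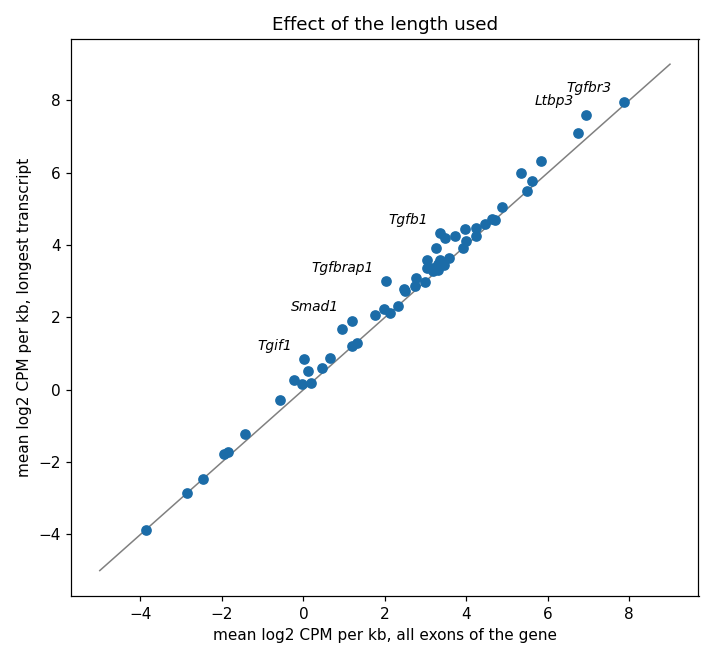
Mean log2 CPM per kb of each TGF-beta and BMP gene with the length taken from all its annotated exons (horizontal axis) or from its longest transcript (vertical axis), with a line of equality. Points lie on or above the line, and *Tgfb1* and *Tgfbrap1* are among those furthest above it.

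Promoter sequence was compared for the 42 genes with an entry in RefSeq's promoter windows for GRCm38.p6, using the 250 bases before each of 55 start sites. Genes without an entry include *Acvrl1*, *Bambi*, *Bmp1*, *Bmp3*, *Bmp7*, *Chrdl1*, *Fst*, *Id1*, *Nog*, *Skil*, *Smad2*, *Smad4*, *Smad7*, *Tgfb3* and *Tgfbr3*. Median GC content was 66.8% in these windows and 59.6% in the 13249 windows of protein-coding genes. The letters GGCGCC, found in BMP-responsive elements, occurred on either strand in 14 of the 55 windows (25.5%, against 16.4% of all windows). These letters are all G or C, and the part of the higher GC content in their share was not tested. CAGACA, which holds a SMAD box, occurred in 8 (14.5% against 13.5%), and TATAAA, the TATA box, in 5 (9.1% against 6.5%). No test was made of these shares, a match is no evidence of binding, and windows of 1 gene are not independent.

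Shown here are the windows of the highest gene with an entry (*Ltbp3*), the highest TGF-beta isoform (*Tgfb2*), the highest ID gene (*Id3*) and the lowest gene (*Gdf10*), 5′ to 3′ on the strand of the gene, with matches to the 3 motifs in capitals. They lie in GRCm38 at chr19:5740650-5740899 (plus strand), chr1:186705990-186706239 (minus), chr4:136143572-136143821 (plus) and chr14:33923337-33923586 (plus).
Ltbp3: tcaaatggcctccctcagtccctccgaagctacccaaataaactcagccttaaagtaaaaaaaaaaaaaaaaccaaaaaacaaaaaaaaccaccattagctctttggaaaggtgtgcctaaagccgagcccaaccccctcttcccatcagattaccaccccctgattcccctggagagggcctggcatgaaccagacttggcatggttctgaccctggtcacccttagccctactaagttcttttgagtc
Tgfb2: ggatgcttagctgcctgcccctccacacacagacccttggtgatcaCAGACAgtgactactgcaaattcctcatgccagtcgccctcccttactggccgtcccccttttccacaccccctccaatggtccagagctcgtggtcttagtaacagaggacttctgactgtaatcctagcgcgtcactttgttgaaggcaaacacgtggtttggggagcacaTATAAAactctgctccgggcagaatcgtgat
Id3: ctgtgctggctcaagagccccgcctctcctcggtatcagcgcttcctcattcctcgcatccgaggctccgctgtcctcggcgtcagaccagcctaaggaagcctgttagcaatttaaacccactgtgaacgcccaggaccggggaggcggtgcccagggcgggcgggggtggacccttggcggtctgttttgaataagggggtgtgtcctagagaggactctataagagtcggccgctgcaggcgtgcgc
Gdf10: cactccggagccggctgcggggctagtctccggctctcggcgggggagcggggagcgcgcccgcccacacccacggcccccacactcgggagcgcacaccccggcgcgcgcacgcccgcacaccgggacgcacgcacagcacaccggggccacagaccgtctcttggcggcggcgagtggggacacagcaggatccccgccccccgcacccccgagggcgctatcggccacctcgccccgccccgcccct
Only the *Tgfb2* window holds a match, with TATAAA beginning 31 bases and CAGACA 204 bases before the start. The *Ltbp3* window was poor in CpG, with 0.16 of the number its base composition gives and a GC content of 47.2%. The *Gdf10* window was rich in both, at 0.93 and 78.8%, with *Tgfb2* at 0.46 and 53.6% and *Id3* at 0.73 and 62.8%. The start used for *Id3* lies 325 bases downstream of the start of the annotated gene, so its whole window lies inside that gene. These 4 windows were picked after the levels were seen, and nothing about all the genes is read from them.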

How the data were processed

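Total RNA of CEC with Descemet membrane was sequenced in 12 libraries, paired-end, with a strand-keeping kit. Alignment by the authors was to GRCm38 (HISAT2). Their counts became CPM scaled by TMM, and limma with voom was their model. The counter, the annotation release and the versions are not given in the sources used here. The deposited tables, 3 with the same 15838 genes, hold the mean log2 CPM of each gene over the libraries beside the authors' comparisons by genotype, sex and their interaction, with a fold change, t, p, adjusted p and log-odds. Those comparison columns were not used, and no values per library were used, so neither depth nor spread is known and no test was made.

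Computed here (Python 3.11.15, pandas 2.3.3) were CPM, the level per kb of exonic bases (union of exons, GENCODE M21, which held 15824 of the genes), percentiles among protein-coding genes, exon overlaps and motif matches. The percentile formula, the subtraction of length and the motif search were tested on simulated data. The exon union, the exon overlaps and the base composition were not. The genes found by the symbol rule are named, except that some items, this set and the other lists included, are not reported here. Values are due for the 5 highest and the lowest of each role, the 3 genes on each side of 1 CPM, the 5 highest and 5 lowest further pathway genes (ranked here per length) and the markers. The genes and lists were chosen with earlier results of these data known, and the ratios printed between genes were chosen after their values were seen. Alternatives were other CPM thresholds, other tables, all genes in place of protein-coding genes, and other lengths.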

Additional observations from a re-analysis of the deposited data

How the results depend on the processing

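With thresholds of 10 and 100 CPM in place of 1 CPM, 43 and 14 of the 58 genes passed in place of 55. The 3 tables carry the same mean level, so reading another table could not change the median of 4.93 log2 CPM, which was 5.01 among genes of at least 1 CPM. The median percentile was 60.0 by level, 66.9 among all rows, 59.8 among genes of at least 1 CPM and 66.9 per length. The 10 highest genes per length were the same 10 with the longest transcript as length, and 8 of them were among the 10 highest with no correction for length. Of 20 log2 differences between genes, 17 kept their direction and moved by less than 1.5-fold with the longest transcript, and 9 did so with no correction. With no correction, the ratio *Nog* to *Chrd* was 4.78, *Bmp3* to *Bmp4* 24.1, *Tgfb2* to *Tgfb3* 4.65, *Tgfbr3* to *Eng* 20.0 and *Smad3* to *Smad2* 1.41. *Tgfb3* minus *Tgfb1* turned to -0.89 and to -0.49 in these settings, and *Bmpr2* minus *Bmpr1a* turned to 0.85 with no correction. These shifts follow from the lengths alone. Leaving out a library, other pseudocounts and other normalizations were not run, since no values per library were used. A paired analysis was not possible for the same reason.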
